A study of Mus musculus with 8 samples.

Results

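The genes of CatSper, the calcium channel of the sperm tail, were followed in splicing tables of mouse germ cells. All rows with the gene symbol Catsper1, Catsper2, Catsper3, Catsper4, Catsperb, Catsperd, Catsperg1 or Catsperg2 were taken. These are 8 of the 12587 genes in the 10 deposited tables, and they hold 493 of the 82858 distinct splicing events. An event is an alternative stretch of a transcript with reads that include it and reads that skip it. The 8 genes had 375 events in spermatocytes, of which 364 could be tested, and 333 in round spermatids, of which 321 could be tested. Of the 215 events present in both stages, 213 could be tested.

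CatSper opens when the inside of the sperm tail becomes alkaline, and the calcium it lets in drives the whip-like beat called hyperactivation. Its pore is built of the proteins of Catsper1, Catsper2, Catsper3 and Catsper4 together. Catsperb, Catsperd and the Catsperg genes encode auxiliary subunits with large domains outside the cell. Mice lacking a pore protein or the Catsperd protein make sperm that cannot hyperactivate, and the males are infertile.

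The study sequenced polyadenylated RNA of C57BL/6 mice, some carrying a Larp7 conditional knock-out and the others wild type as controls. Larp7 encodes an RNA-binding protein of the 7SK particle that also takes part in modifying the U6 spliceosomal RNA. Spermatocytes, the cells in meiosis, and round spermatids, the haploid cells that follow, were sorted from adult testes by FACS after Hoechst staining, with 2 libraries for each genotype and stage and 8 in all. The labels do not name the driver of the conditional deletion or the exact age, and they call the libraries biological replicates without saying that each came from its own animal, so p-values measure only the spread between these libraries. The tables number their sample groups and do not say which holds which genotype. Within a stage the first group is set against the second, with no genotype direction, while the stage of each table is known from the labels.

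Reads over all events summed to between 49904607 and 102000320 per library, and to between 277427 and 839124 over the CatSper events. The second library of the first group was the deepest in both stages. Read density (reads per kilobase of the form they come from, scaled to the library sum as in RPKM) of Larp7 was 363 and 433 in the first against 2266 and 2128 in the second spermatocyte group, and 541 and 673 against 2299.9 and 2490 in round spermatids. These values were not used to assign a genotype. Summed reads of 8 spermatocyte markers, in CPM of the library sum, were 3851 to 5213 in spermatocytes and 750 to 909 in round spermatids. For 5 round spermatid markers other than Catsper3 the sums were 2046 to 2829 and 3680 to 4145.

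The CatSper genes fell into distinct patterns between the stages. Reads of Catsper1, Catsper3 and Catsper4 were 14.0 to 16.7 times higher in round spermatids, those of Catsper2 were modestly higher there, and those of Catsperb, Catsperd, Catsperg1 and Catsperg2 were higher in spermatocytes. Each gene was measured by its most covered event shared by both stages, and levels are given as read density, so that genes can be compared per length. All 8 passed the test (limma, Benjamini-Hochberg), which 78.2% of all 8512 genes tested also did, with 28.5% lower and 49.8% higher in spermatocytes. In sorted bulk samples, fewer cells that make a transcript and less of it per cell cannot be told apart.

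Catsper1 (ENSMUSG00000038498.3, chr19:5335615-5344281) encodes the pore subunit with a histidine-rich tail inside the cell. Its read density was 55.0, 41.9, 34.3 and 62.5 in the 4 spermatocyte libraries, first group before second, and 561, 837, 956 and 908 in the 4 round spermatid libraries. The stages did not overlap, and the log2 difference was -4.06 (SE 0.20, adjusted p = 1.82e-09), or 16.7-fold. Catsper3 (ENSMUSG00000021499.12, chr13:55784500-55824048), another pore subunit, had 38.1, 47.7, 32.4 and 50.01 in spermatocytes and 475, 629, 736 and 748 in round spermatids. Its log2 difference of -3.94 (SE 0.18, adjusted p = 1.03e-09) was 15.3-fold. Catsper4 (ENSMUSG00000048003.12, chr4:134211965-134227431) had 38.9, 25.9, 21.4 and 23.0 against 401, 302, 480 and 336. Its log2 difference was -3.81 (SE 0.19, adjusted p = 2.05e-09), or 14.0-fold. These 3 pore genes thus had the lowest levels of the family in spermatocytes, where only 2, 1 and 3 of their events were listed, against 20, 5 and 22 in round spermatids.

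Catsper2 (ENSMUSG00000033486.14, chr2:121391633-121414598) was the pore gene that departed from this pattern. In spermatocytes its read density was 1111, 1355, 1940 and 1922, within the range of the Catsperg genes and Catsperd or above it, and it stood at 1828, 2535, 2196 and 2474 in round spermatids. The stages overlapped between libraries, and the log2 difference was -0.54 (SE 0.13, adjusted p = 0.00159). Over the sum of all Catsper2 events the difference was -0.28 (adjusted p = 0.0397). Catsper2 overlaps Pdia3 in RefSeq, and the sources used here do not say whether reads were counted by strand.

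Among the auxiliary genes, Catsperg1 (ENSMUSG00000049676.14, chr7:29181532-29215589) differed most. Its read density was 1002, 1152, 1377 and 1611 in spermatocytes and 339, 403, 309 and 369 in round spermatids, a log2 difference of 1.84 (SE 0.12, adjusted p = 1.73e-08), or 3.57-fold. The event behind this level spans an intron that was itself retained more in spermatocytes, and over the sum of all events the difference was 1.499 (adjusted p = 3.07e-09). Its paralog Catsperg2 (ENSMUSG00000049123.10, chr7:29697217-29727049) had 1142, 1024, 1337 and 1461 against 639, 395, 500 and 434. That was a log2 difference of 1.33 (SE 0.14, adjusted p = 2.12e-06), or 2.52-fold. The 2 genes are close copies, so reads may be divided between them in ways the tables do not show, and the values of each are uncertain to that extent.

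Catsperd (ENSMUSG00000040828.9, chr17:56626911-56664456), whose protein keeps the channel stable, had 1045, 1158, 1307 and 1170 in spermatocytes and 483, 482, 529 and 435 in round spermatids. All spermatocyte libraries lay above all round spermatid libraries, with a log2 difference of 1.28 (SE 0.12, adjusted p = 4.10e-07). The RefSeq non-coding gene Gm33461 overlaps Catsperd. Catsperb (ENSMUSG00000047014.6, chr12:101404645-101626009) had 499, 526, 536 and 592 against 365, 346, 284 and 356, a log2 difference of 0.68 (SE 0.12, adjusted p = 0.000181). This was the smallest excess in spermatocytes among the auxiliary genes. With median-ratio scaling in place of the library sum, the median log2 difference of all genes moved from 0.45 to 0.02. Catsperb then differed by 0.25 (adjusted p = 0.0768) and was no longer called, while the other 7 genes kept their direction and their call.

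In spermatocytes the order of mean density was Catsper2 at 1582 ± 415 (SD, n = 4), Catsperg1 at 1286 ± 266, Catsperg2 at 1241 ± 195, Catsperd at 1170 ± 107, Catsperb at 538 ± 38.9, Catsper1 at 48.4 ± 12.7, Catsper3 at 42.1 ± 8.27 and Catsper4 at 27.3 ± 7.95. The ranges of the first 4 overlapped, as did those of the last 3, while Catsperb stood apart from both sets. In round spermatids Catsper2 came first at 2258 ± 323, above every library of every other member. Catsper1 at 815 ± 177 and Catsper3 at 647 ± 127 followed, with overlapping ranges. Catsperg2 at 492 ± 107, Catsperd at 482 ± 38.6, Catsper4 at 380 ± 78.3, Catsperg1 at 355 ± 40.3 and Catsperb at 338 ± 36.7 then overlapped in turn. A density rests on a single event of each gene, so differences between genes also carry differences in coverage along the transcripts. The order in round spermatids depended on the event. With each gene's most covered event in round spermatids alone, Catsperg1 had 685, 877, 659 and 828 and Catsper4 had 580, 688, 853 and 687. Catsperg2 then had 605, 451, 518 and 469, and Catsperd had 430, 419, 461 and 378.

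**Figure D1:**
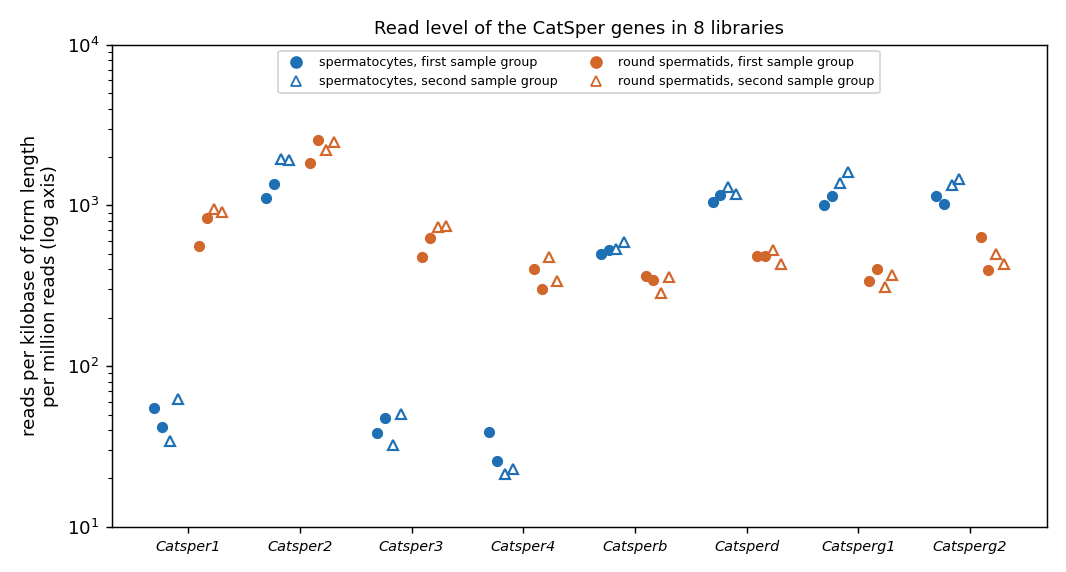
Read density of the 8 CatSper genes (reads per kilobase of form length, scaled to the library sum, log axis) in 4 spermatocyte libraries (blue) and 4 round spermatid libraries (orange), with filled circles for the first and open triangles for the second sample group. Catsper1, Catsper3 and Catsper4 sit at 21.4 to 62.5 in spermatocytes and at 302 to 956 in round spermatids, while the 4 auxiliary genes are higher in spermatocytes.

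Genes of later sperm cells moved in the same direction as the 3 pore genes. Of 8 markers of elongating spermatids, 3 had events (Akap4, Gapdhs and Odf2). Their summed reads were 2116 to 3291 CPM in spermatocytes and 9470 to 16046 CPM in round spermatids. Akap4, a scaffold of the sperm tail, was 17.1-fold and Gapdhs, the sperm form of a glycolytic enzyme, 15.3-fold higher in round spermatids, while Odf2, a protein of the outer dense fibres, was 2.15-fold higher. The protamine and transition protein genes Prm1, Prm2, Tnp1 and Tnp2 had no event in the tables. The part of such cells in the CatSper values was not tested.

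Promoter sequence was at hand for 6 of the 8 members, as RefSeq windows (GRCm38.p6, the mm10 assembly) of 250 bases before to 50 after a start site. They were searched on both strands for short motifs of factors known in germ cells. TGACG, the core of the cAMP response element bound by the CREM family, was found in the windows of Catsper2 and Catsperd and in 20.8% of 32851 promoters. GTTGC, part of the X-box bound by RFX factors, was found in that of Catsper3 and in 35.2% of promoters. The windows of 30 bases around these matches are shown because the pore gene Catsper3 and the genes Catsper2 and Catsperd differed in opposite or unequal ways between the stages. Capitals mark the match, read 5′ to 3′ on the strand of the gene, so that CGTCA is TGACG on the opposite strand.
Catsper3, chr13:55784396-55784425, plus strand: tgctttccccaggGTTGCtaggtactcacc
Catsperd, chr17:56626874-56626903, plus strand: ggaacagccatacTGACGgcgcaccgcact
Catsperd, chr17:56626893-56626922, plus strand: cgcaccgcacttaCGTCAtctctgctcgcc
Catsperd, chr17:56626928-56626957, plus strand: tttgcgcacgtgaTGACGctcgcgtgcttc
Catsper2, chr2:121413853-121413882, minus strand: cgccgattggctgCGTCAcgcagcgtcggg
The Catsperd window (chr17:56626797-56627096) and the Catsper2 window (chr2:121413743-121414042) are placed on a start site inside the gene span given above. So are those of Catsper3 (chr13:55784329-55784628), Catsperb (chr12:101404423-101404722) and Catsperg1 (chr7:29213984-29214283). The Catsper2 and Catsperg1 windows lie wholly within their gene spans. Counted from the start site of its window, the 3 Catsperd matches lay 160, 141 and 106 bases before that site. A match of this length is a description of the letters and not evidence of binding. TATAAA was found in the Catsperg1 window and in 13.6% of promoters, and CCAAT in those of Catsper2 and Catsperb and in 37.4% of promoters.

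Splicing events that differed between the stages were found in 5 of the 8 genes, with the largest share of calls among introns of Catsperg1 and Catsperg2. Over all 8510 genes with tested events 28.2% had such a call, and a gene with more events has more occasions for one. Of the 213 tested CatSper events 51 were called at an adjusted p below 0.05, with 26 lower and 25 higher inclusion in spermatocytes. Over all 34455 tested events 12.5% were called, 6.5% lower and 5.96% higher. The calls fell on Catsperg1 (25 of 89), Catsperg2 (11 of 46), Catsper2 (6 of 12), Catsperb (5 of 43) and Catsperd (4 of 17). The share in Catsperb, 11.6%, was no higher than that over all events. Catsper1, Catsper3 and Catsper4 had 0 calls among their 2, 1 and 3 shared events (0 also by the quasi-binomial test, and 0 at an unadjusted p below 0.05), which rested on the low spermatocyte reads. The median difference in inclusion was -0.17 percentage points over the CatSper events and -0.05 over all events.

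Among the 8 genes only Catsperg1 and Catsperg2 have retained-intron rows, 8 and 5 of them. Of these 13, 11 were called as retained more in spermatocytes and 0 as retained less, where 27.8% of all 2343 tested introns were called as retained more and 3.76% as retained less. The median difference was 20.2 points over the 13 rows and 1.85 points over all introns. The 10 rows that hold a single intron were all among the 11. In each of them every spermatocyte library lay above every round spermatid library, by 5.64 to 37.5 points on average, and retention in spermatocytes was 1.74 to 2.84 times that in round spermatids. Over all 2343 tested introns, the libraries of the stages did not overlap, in either direction, in 30.6%. The 3 other rows are longer stretches with an exon inside, at 93.6% to 99.7% in both stages, and 1 of them was called.

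The widest difference was in a Catsperg1 intron of 185 bases (chr7:29185252-29185436). It was retained in 58.0%, 59.0%, 54.3% and 60.7% of transcripts in spermatocytes and in 22.7%, 20.3%, 18.8% and 20.0% in round spermatids (log2 odds difference 2.45, SE 0.16, adjusted p = 1.42e-52). The next intron of 226 bases (chr7:29184769-29184994) was the most retained in both stages, at 62.0%, 60.7%, 64.2% and 64.3% against 36.0%, 35.0%, 34.4% and 34.4%. Farther upstream, an intron of 105 bases (chr7:29190332-29190436) had 53.3%, 52.6%, 53.1% and 50.3% against 23.0%, 21.5%, 27.2% and 22.5%. The other single introns of Catsperg1 averaged 37.7% against 13.8% (91 bases), 15.6% against 6.76% (185 bases, chr7:29190028-29190212) and 10.4% against 4.81% (128 bases). Between the sample groups, 0 of the 13 rows were called in either stage by limma or the quasi-binomial test, and 0 had an unadjusted p below 0.05. Calls were rare over all introns too, with 48 of 2485 in spermatocytes and 3 of 2282 in round spermatids by limma.

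Catsperg2 repeated the layout of its paralog. Its 4 single introns measured 226, 188, 103 and 131 bases, and introns of 226, 185, 105 and 128 bases stand in the same order in Catsperg1. Retention in Catsperg2 averaged 47.6% in spermatocytes against 27.4% in round spermatids for the 226-base intron, 46.3% against 20.3% for the 188-base intron (chr7:29700878-29701065) and 11.4% against 4.65% for the 131-base intron. The 103-base intron (chr7:29705190-29705292) had 42.8%, 47.5%, 45.4% and 50.1% against 18.0%, 20.9%, 19.7% and 20.9% (log2 odds difference 1.82, SE 0.21, adjusted p = 1.74e-15). In both genes and both stages, the single intron nearest the start of the transcript was the least retained. In Catsperg1 the one nearest the end was the most retained, while in Catsperg2 in spermatocytes the other 3 introns overlapped. With reads possibly divided between the copies, the likeness of the 2 genes is uncertain.

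**Figure D2:**
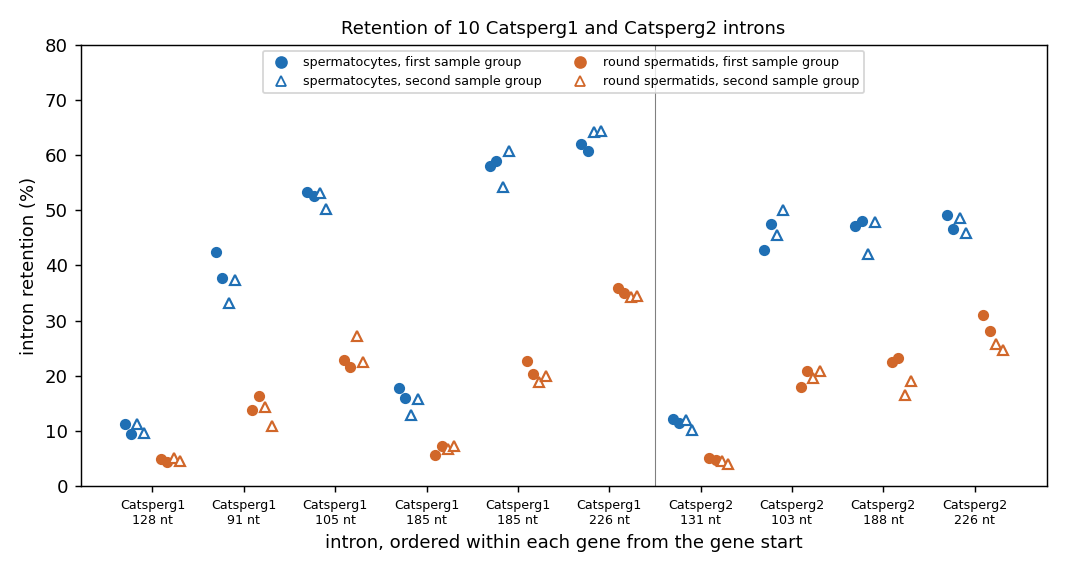
Retention (%) of the 10 single introns of Catsperg1 (left of the line) and Catsperg2 (right) in each library, with blue for spermatocytes, orange for round spermatids, and symbols for the sample groups. In each intron all spermatocyte libraries lie above all round spermatid libraries, with the widest gap, 37.5 points, in a Catsperg1 intron of 185 bases. Libraries of the stages did not overlap, in either direction, in 30.6% of all 2343 tested introns.

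Cassette exons of the same genes went mostly the other way. Of 136 tested CatSper cassette-exon events, 22 (16.2%) were called as included less and 5 (3.68%) as included more in spermatocytes, where the shares over all cassette exons were 7.21% and 3.85%. In Catsperg1, an exon of 127 bases (chr7:29206554-29206680) was included at 46.3%, 44.5%, 47.7% and 46.1% in spermatocytes and 65.5%, 64.2%, 66.3% and 60.8% in round spermatids (log2 odds difference -1.08, SE 0.18, adjusted p = 1.98e-07). Its neighbour of 73 bases (chr7:29206329-29206401) had 23.5%, 24.7%, 24.2% and 30.7% against 42.3%, 45.3%, 39.6% and 45.0%. The stages did not overlap in either row. In its most covered spermatocyte row, however, the 73-base exon stood at 84.4%, 85.3%, 85.7% and 88.4%, so its level depends on the row. Catsperg2 has exons of the same lengths, also included less in spermatocytes in the rows called. Its 73-base exon (chr7:29721042-29721114) averaged 88.4% against 96.3% (adjusted p = 1.00e-07) and its 127-base exon (chr7:29721267-29721393) 93.2% against 98.2% (adjusted p = 0.000244). The 127-base exon of Catsperg2 averaged 99.90% in its most covered spermatocyte row, so its lower inclusion holds for the called row only.

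Several rows describe the same exon with other flanking exons, and the level depends on the row. The 159-base exon of Catsperg1 (chr7:29195413-29195571) averaged 35.6% in spermatocytes and 51.5% in round spermatids in one row and 64.2% and 71.4% in another, and both rows were called. The next Catsperg1 exon of 110 bases (chr7:29195214-29195323) had 41.5%, 47.0%, 55.4% and 55.9% against 58.4%, 63.3%, 67.2% and 67.0% (adjusted p = 0.000108). In Catsperg2, 3 overlapping rows that end at the same base (chr7:29700305-29700716, chr7:29700590-29700716 and chr7:29700621-29700716) averaged 72.1%, 63.4% and 64.9% in spermatocytes and 84.6%, 82.2% and 83.5% in round spermatids. The longest of them, 412 bases, takes in the whole 226-base intron described above, so its inclusion reads and the retention reads are partly the same. The remaining called cassette exons of Catsperg1 had 90, 94 and 54 bases and lay above 93% in both stages, as did the 127-base exon in a second row, at 96.4% against 98.7%. In Catsperg2 they had 138 and 156 bases and averaged 94.7% against 98.1% and 94.6% against 98.6%. The 156-base exon of Catsperg2 averaged 99.92% in its most covered spermatocyte row.

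In Catsper2, the difference at a 156-base exon (chr2:121406707-121406862) depended on the row. Between flanking exons farther away it was included at 36.8%, 21.2%, 31.3% and 26.0% in spermatocytes and at 81.0%, 78.8%, 78.2% and 65.1% in round spermatids (log2 odds difference -2.95, SE 0.43, adjusted p = 3.25e-10). This row held only 86.9 reads per library on average. Between its nearest listed exons the same exon had 1853 to 3596 inclusion reads and 0 to 5 skipping reads per library, and averaged 99.94% in spermatocytes against 99.82% in round spermatids (adjusted p = 0.458). The other called cassette exons of Catsper2, of 100 and 24 bases, averaged 99.4% against 99.9% and 94.1% against 98.5%. For the 24-base exon this row held 438 reads per library on average. Its most covered spermatocyte row averaged 99.98%. A pair of mutually exclusive exons of Catsper2 (chr2:121410138-121410206 as the counted exon, chr2:121406329-121406453 as the other) had the counted exon at 69.0%, 68.1%, 63.2% and 62.4% against 61.4%, 41.5%, 53.5% and 49.0% (adjusted p = 2.44e-06). The same pair in another row averaged 89.2% against 85.5% (log2 odds difference 0.50, adjusted p = 0.0246). There the stages overlapped, the quasi-binomial test gave an adjusted p of 0.179, and the difference turned to -0.24 without the second library of the first round spermatid group. A pair of the 156-base exon with one of 173 bases, counted, averaged 48.7% against 41.6% (adjusted p = 0.0438, and 0.0508 by the quasi-binomial test). On the minus strand the deposited inclusion stands for the second exon of such a pair, as the form lengths show.

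In Catsperb, 3 called exons were included slightly less in spermatocytes and 1 slightly more. The largest was a 145-base exon (chr12:101520503-101520647) at 87.1%, 90.3%, 86.1% and 89.2% against 94.8%, 94.7%, 91.7% and 93.6% (log2 odds difference -0.98, SE 0.24, adjusted p = 0.000962). A 140-base exon averaged 93.8% against 98.6%, a 61-base exon 96.7% against 98.6%, and a 330-base exon 96.7% against 92.6%. A pair of exclusive exons of Catsperb, of 155 bases, counted, and 194 bases, averaged 67.7% against 75.5%. In Catsperd, the exon of 118 bases (chr17:56635490-56635607) averaged 54.0% against 62.4% (adjusted p = 0.0351), with libraries that overlapped between the stages. A 114-base exon of Catsperd (chr17:56654435-56654548) went the other way, with 85.4% against 77.0% (adjusted p = 1.20e-05), and its libraries overlapped as well while the sample groups stood apart within each stage. Its 83-base exon averaged 92.8% against 96.6% (adjusted p = 0.00502), also with stages that overlapped, and a 129-base exon 99.5% against 98.9%.

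Mutually exclusive pairs gave 11 calls of 47 tested, 7 of them in Catsperg1. Of the 11, 7 were higher and 4 lower in spermatocytes, where the shares over all pairs were 6.45% and 5.58%. The largest was the pair chr7:29189810-29189866, counted, and chr7:29185188-29185593, at 37.2%, 27.1%, 37.0% and 26.9% in spermatocytes against 58.9%, 52.6%, 63.1% and 56.5% in round spermatids (log2 odds difference -1.56, SE 0.16, adjusted p = 1.99e-19). The second exon of this pair contains the 185-base intron with the widest difference in retention. The pair chr7:29196975-29197104, counted, and chr7:29195828-29195939 had 57.1%, 59.9%, 69.2% and 70.5% against 75.5%, 80.4%, 80.7% and 84.2%. When the 57-base exon (chr7:29189810-29189866) was paired with the shorter form chr7:29185437-29185593, which lacks the intron, it averaged 38.1% in spermatocytes against 26.1% in round spermatids, the other direction. The pair chr7:29210480-29210533, counted, and chr7:29206805-29206949 averaged 55.2% against 65.7% (adjusted p = 0.0210). The exon chr7:29204767-29204922, counted, averaged 27.8% against 19.5% when paired with chr7:29200117-29200254 and 31.1% against 24.3% when paired with chr7:29202264-29202435. The pair chr7:29198113-29198220, counted, and chr7:29197157-29197264 averaged 99.3% against 98.7%. Alternative 3′ splice sites gave 2 calls of 7, both higher in spermatocytes (4.28% of all such events) and both in Catsperg1, where their stretches cover the introns of 185 and 105 bases and averaged 98.8% against 96.9% and 98.4% against 96.6%. Of 10 alternative 5′ splice sites 0 were called by limma or the quasi-binomial test and 3 had an unadjusted p below 0.05, where 7.49% of all were called higher and 4.53% lower. A difference of at least 10 points between the stages was found in 22 of 213 tested CatSper events and in 3509 of all 34455. Of the 22 CatSper events 20 were called, and the other 2 held at most 22.2 reads per library on average.

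**Figure D3:**
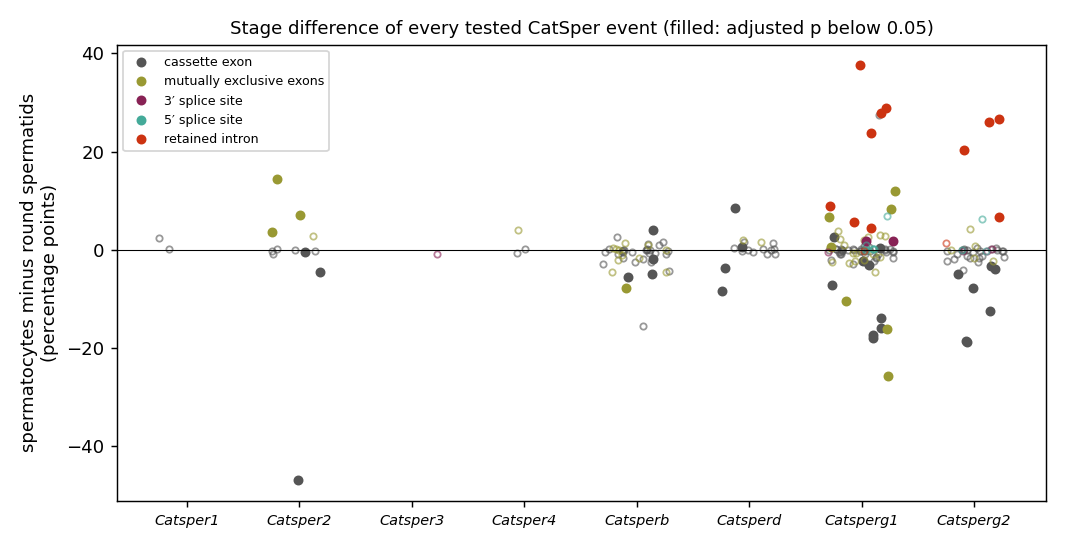
Difference in inclusion between spermatocytes and round spermatids (percentage points) for every tested CatSper event, by gene and event type, with filled points for an adjusted p below 0.05 and sideways scatter only to separate points. The 10 single introns of Catsperg1 and Catsperg2 lie above 0, while most called cassette exons lie below, down to the sparsely read row of the Catsper2 exon of 156 bases.

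Within a stage, few CatSper events separated the sample groups. In spermatocytes 6 of 364 tested events were called, 5 with lower and 1 with higher inclusion in the first group, against 0.537% of all 61123 events (0.398% lower and 0.139% higher). In round spermatids 2 of 321 were called, 1 in each direction, against 0.131% of 48060 (0.0874% lower and 0.0437% higher). At an unadjusted p below 0.05 there were 51 and 23 CatSper events, or 14.0% and 7.17% of those tested, against 8.59% and 5.88% of all. The authors' deposited table gave an FDR below 0.05 to 24 and 11 of the CatSper events and to 4.8% and 2.4% of all. The calls of both stages were lost, 0 of 6 and 0 of 2 remaining, without count weights, without the filter on reads, with the trend on total reads, or when either library of the second group was left out. Leaving out a library of the first group gave 41 or 33 CatSper calls in spermatocytes and 37 or 15 in round spermatids, but these were other events. Of the 6 original calls 1 and 0 were among them, and of the 2 in round spermatids 0 and 0.

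Catsperd held the 2 exons with the lowest adjusted p in spermatocytes. Its 114-base exon was included at 89.8% and 92.1% in spermatocytes of the first group against 80.1% and 79.6% of the second (log2 odds difference 1.40, SE 0.25, adjusted p = 3.38e-05). In round spermatids it stood at 87.0% and 83.0% against 71.3% and 66.5% (1.28, SE 0.28, adjusted p = 0.00888). The groups did not overlap in either stage, and this was the one CatSper event called in both by limma. With 2 libraries per group such separation was common. It was found in 144 of 364 CatSper events and 30.7% of all events in spermatocytes, and in 83 of 321 and 25.1% in round spermatids. The 83-base exon of Catsperd (chr17:56652457-56652539), whose length is not a whole number of codons, went the other way. It had 91.0% and 87.5% against 95.9% and 96.9% in spermatocytes (-1.79, SE 0.30, adjusted p = 3.76e-06). In round spermatids the 83-base exon had 96.2% and 93.5% against 98.2% and 98.4% (-1.75, SE 0.49). There it was not called by limma (adjusted p = 0.144), while the authors' deposited FDR was 0.00013. Whether the group difference itself differs between the stages was not tested.

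Among the Catsperg genes, a row of the 159-base exon of Catsperg1 had 29.04% and 27.99% in the first spermatocyte group against 45.1% and 40.2% (-0.91, SE 0.20, adjusted p = 0.00222). In round spermatids the same row had 47.2% and 44.7% against 58.5% and 55.6% (limma, adjusted p = 0.641, and 0.0199 as the authors' deposited FDR). The most covered spermatocyte row of this exon had 62.3% and 57.8% against 70.5% and 66.2% and was not called (limma, adjusted p = 0.172). A 138-base exon of Catsperg2 (chr7:29714841-29714978) had 92.9% and 91.7% against 96.9% and 97.3% in spermatocytes (adjusted p = 0.000589). The 412-base stretch of Catsperg2 had 68.3% and 66.6% against 73.5% and 80.004% (adjusted p = 0.0420), and the pair chr7:29196975-29197104 and chr7:29195828-29195939 of Catsperg1 had 57.1% and 59.9% against 69.2% and 70.5% (adjusted p = 0.0486). By the quasi-binomial test these last 2 reached 0.0799 and 0.0791 and were not called.

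Catsper1 gave the other call in round spermatids. Its 114-base exon (chr19:5338714-5338827) had an inclusion of 89.99% and 91.1% in the first group against 97.9% and 96.4% in the other (-1.74, SE 0.35, adjusted p = 0.00170). In spermatocytes the same exon had 94.0% and 97.0% against 96.1% and 97.9% with 4 and 3 skipping reads against 2 and 2, and the groups overlapped. In spermatocytes 11 of 364 tested CatSper events differed by at least 10 points between the groups, and 4064 of 61123 over all. In round spermatids 8 of 321 did, and 3181 of 48060 over all. Of these CatSper events, 3 of 11 were called in spermatocytes and 1 of 8 in round spermatids. The 8 others in spermatocytes included 5 Catsperb exons with 27.0 to 62.0 reads per library, the 110-base exon of Catsperg1 (adjusted p = 0.0927) and 2 of the overlapping Catsperg2 exons (adjusted p = 0.0846 and 0.0991). The 7 others in round spermatids had adjusted p-values of 0.445 to 0.747, with 3 of them, in Catsper4 and Catsperg2, at 11.2 to 20.5 reads per library. They also included a Catsperd pair of exclusive exons (chr17:56653580-56653756, counted) in 2 rows, lower in the first group by 14.6 and 11.5 points, a 31-base splice-site stretch of Catsperg1 and its 159-base exon. Most other exons were near constitutive. Taking the most covered row of each exon, 24 of 31 Catsperg1 exons and 17 of 27 Catsperg2 exons were included at 95% or more in all spermatocyte libraries, as were 5 of 6 Catsper1 and all 6 Catsper4 exons in round spermatids.

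**Figure D4:**
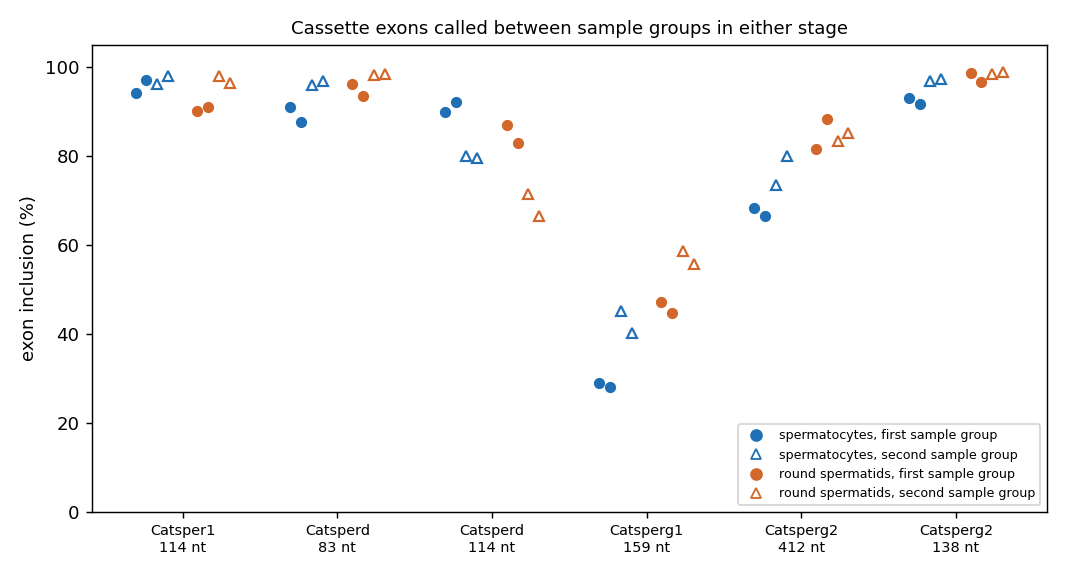
Inclusion (%) of the 6 CatSper cassette exons called between sample groups in either stage, in each library, with blue for spermatocytes, orange for round spermatids, filled circles for the first and open triangles for the second group. The 114-base exon of Catsperd is higher in the first group in both stages, and the other exons are lower in the first group where they were called.

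No CatSper gene was called for reads between the sample groups in either stage (0 of 8 by limma in each), where 5.54% of 9861 genes in spermatocytes (0.832% lower and 4.71% higher) and 0.0859% of 9315 in round spermatids (0.0107% and 0.0751%) were. At an unadjusted p below 0.05 there were 2 in spermatocytes and 0 in round spermatids. The nearest were Catsperg1 (log2 difference -0.50, SE 0.14, adjusted p = 0.0547) and Catsperg2 (-0.41, SE 0.13, adjusted p = 0.0800) in spermatocytes. Both were called with median-ratio scaling, at -0.65 (adjusted p = 0.0237) and -0.57 (adjusted p = 0.0309). Catsperg1 and Catsper2 were called over the sum of all events, at -0.39 (adjusted p = 0.0253) and -0.38 (adjusted p = 0.0486). In round spermatids Catsper1 stood at -0.42 (adjusted p = 0.519), and at -0.69 (adjusted p = 0.0191) without the second library of the first group. The spermatocyte groups also differed in other cell types. Summed reads of 7 of 8 spermatogonia markers were 233 and 60.5 CPM in the first group against 19.2 and 25.1 CPM, and those of 4 of 6 Sertoli cell markers 205 and 135 against 40.9 and 69.2. For 5 of 8 markers of Leydig, peritubular and immune cells the sums were 66.2 and 40.02 CPM against 34.6 and 44.3. In the same libraries 4 of 8 spermatocyte markers (Dmc1, Hormad1, Sycp1 and Sycp3) were called higher in the first group and 0 lower. The others were not called, with log2 differences of 0.22 for Sycp2, -0.53 for Spo11, -0.34 for Piwil1 and -0.15 for Stag3. No marker with events was at 0 in all libraries. Their part in the CatSper differences was not tested.

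Of 31 other gene symbols of the channel and of sperm ion signalling, 18 had events. The 31 include both Tex40 and Catsperz, names of the same gene, so they stand for fewer than 31 distinct genes. Between sample groups 0 of the 18 were called for reads by limma, with 3 in spermatocytes and 2 in round spermatids at an unadjusted p below 0.05. Of their events 0 of 259 and 0 of 257 were called by limma or the quasi-binomial test, with 26 and 8 at an unadjusted p below 0.05. Between the stages, reads of 10 were lower and of 4 higher in spermatocytes, where 28.5% of all genes were called lower and 49.8% higher. Low in spermatocytes were Tmem262, which encodes a small CatSper subunit (log2 difference -3.94), Atp1a4, the sodium pump of sperm (-3.95), Plcz1, the egg-activating phospholipase (-3.86), Camk4 (-3.46), Kcnu1, the sperm potassium channel SLO3 (-3.05), and Abhd2 (-2.51), the progesterone-sensitive lipase. Adcy10, the soluble adenylyl cyclase, differed by -1.06, the chloride channel gene Cftr by -1.20, Als2cr11, which encodes the CatSper tau subunit, by -0.57 and the calcineurin gene Ppp3cc by -0.31. Pkd2l1, a cation channel gene, was higher in spermatocytes by 4.34 and the calcium pump gene Atp2b4 by 1.35. Slc9b1 (0.34) and Tex40 (0.24), the older symbol of Catsperz, were also called higher, but with median-ratio scaling they stood at -0.09 and -0.19 and were not called. That scaling gave 12 lower and 2 higher, with Slc9c1 and Slco6c1 now called lower. A called splicing difference between the stages was found in 8 of the 18 (44.4%), where 28.2% of 8510 genes had one: Adcy10, Als2cr11, Cftr, Ppp3cc, Slc26a8, Slc9b1, Slc9c1 and Slco6c1.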

How the data were processed

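STAR and the mm10 build are named in the submitters' processing notes, without a version in the sources used here. Per the file headers, each row of the 10 deposited tables gives inclusion and skipping reads of 2 libraries per sample group, joined by a comma, form lengths, inclusion fractions, and the authors' own p-value with its FDR. Because joined cells are not plain counts, no count-model package was used. The deposited fractions were recomputed from reads per form length with a largest gap of 0.0005.

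The log2 odds of inclusion entered a limma 3.58.1 fit (R 4.3.3), with an average of 0.5 reads added, counting weights, and a trend on reads of the rarer form. Events needed 10 reads per library on average and a read of each form. Gene reads were log2(CPM), with 0.5 reads added, of each gene's most covered event, relative to the library sum of such reads. Benjamini-Hochberg adjustment ran over all events or genes of a comparison, and an adjusted p below 0.05 was called. Stage comparisons used all 8 libraries in 4 groups. The fits were tested on simulated data. By rule, all 8 members and every event called or differing by at least 10 points were to be described, of which the uncalled ones are partly given as counts and ranges. Members, lists and tests were chosen with earlier results of these data known. Alternatives were other weights, filters, trends, scalings, a quasi-binomial test, the authors' deposited FDR, and leaving out each library. Library totals are unknown because events share reads. Plots used matplotlib 3.10.9.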

Additional observations from a re-analysis of the deposited data

How the results depend on the processing

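Of the results that answer a comparison, the count of Catsperg1 and Catsperg2 introns retained more in spermatocytes (11), the 51 CatSper events called between stages (36 to 48 when a library was left out) and the 6660 genes called for reads between stages (6298 to 6690) stayed within 1.5 times under all alternatives run. Calls within a stage did not. In spermatocytes the 328 events called became 0 with the trend on total reads, 21 without weights, 0 without the filter and 2934 by the authors' deposited FDR, and 0 to 11381 with a library left out. The 6 CatSper events became 0, 0, 0 and 24, and 0 to 41. In round spermatids the 63 events became 0, 28, 0, 120 by the quasi-binomial test and 1154, and 0 to 6589. The 2 CatSper events became 0, 0, 0 and 11, and 0 to 37. Genes called for reads went from 546 to 853 over the sum of events in spermatocytes (57 to 1554 with a library left out), and from 8 to 5 with median-ratio scaling and 17 over the sum of events in round spermatids (15 to 1067). The 4294 events called between stages became 2796 without weights and 2398 to 3835 with a library left out. The cause was not tested.

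Of the genes called for reads, 63.6% were higher in spermatocytes than in round spermatids, and 49.1% with median-ratio scaling. In spermatocytes 85% of called genes were higher in the first group, and 63.5% with that scaling. A 54-base Catsperg1 exon (chr7:29210480-29210533) with a log2 odds difference of 1.79 between stages turned to -0.33 without weights and to -0.93 without the second library of the second round spermatid group, and was 2.31 at most with a library left out. A Catsper2 pair (chr2:121406329-121406453) with 0.50 turned to -0.24 without the second library of the first round spermatid group, and was 0.82 at most. The cause was not tested. No paired analysis was possible because the columns carry no replicate numbers. Over the 51 CatSper events called between stages and 8 omissions of a library, 324 fits kept direction and call, 81 lost the call and 3 reversed. With a library left out, a lone library is assumed to vary like the other groups.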
